A study of Mus musculus with 6 samples.

Results

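The genes described here are the mouse protein-coding genes of the sine oculis homeobox family and those named Lhx, Nkx, Dlx, Irx, Pax, Emx, Msx, Meis or Pitx followed by a number, chosen by symbol alone from the GENCODE annotation of GRCm38. They are 60 of 21853 protein-coding genes and fall into 10 families: 14 Nkx, 9 Pax, 8 Lhx, 6 Dlx, 6 Irx and 6 sine oculis genes, 3 Meis, 3 Msx, 3 Pitx and 2 Emx genes. H3K27ac, the acetylated form of a lysine in the tail of histone H3, was measured by ChIP-seq in E14 mouse embryonic stem cells (mESCs). The question put was whether blocking transcription changes this mark. All cells were of 1 line, E14Tg2A carrying Rosa26-Cre and Oct4-IRES-Puro, kept in N2B27 medium with LIF and the inhibitors PD0325901 and CT-99021. Control cells received DMSO, and the others received for 120 min either NVP-2, an inhibitor of the elongation kinase CDK9, at 100 nM or actinomycin D (ActD), a DNA intercalator that blocks RNA polymerases, at a concentration the labels give as 800 nM and as 1 µg/ml. Each group had 2 replicates with human HEK293 cells as spike-in, and all values below come from the 1 list of 22973 peaks that the authors made from both control replicates together, so the 4 treated samples enter no value and there is no replicate error.

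Homeodomain proteins bind short AT-rich DNA motifs and set regional identity in the embryo. Nkx and Pax proteins pattern the neural tube and specify organs such as heart, lung, thyroid, eye and kidney, and Lhx proteins (LIM-homeodomain factors) specify neuron types. Dlx, Msx and Emx genes act in forebrain, craniofacial skeleton and limb. Irx genes pattern nervous system and heart, sine oculis genes act in eye, ear, kidney and muscle, Pitx genes in pituitary and hindlimb, and Meis proteins are partners of Pbx and Hox proteins. Some Pax proteins, such as Pax1 and Pax9, have a paired domain without a full homeodomain. In mESCs most such genes are silent or nearly so, and many of their CpG-rich promoters are known to be bound by Polycomb complexes, whose mark H3K27me3 sits on the same lysine that H3K27ac occupies. H3K27ac is found at active promoters and enhancers.

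Sequences next to the start of members with and without a peak are shown first, because most promoters of both kinds were rich in CpG, the dinucleotide that carries DNA methylation and defines CpG islands. Each run is 150 bases on the gene's strand, 5′ to 3′, lying before the RefSeq start in GRCm38.p6, with each CG in capitals and stretches overlapping an annotated exon left out. The rule took, from families with both kinds, the member with the widest promoter peak and the unmarked member farthest from a peak. It also named Nkx2-6, Dlx6 and Irx5. Nkx1-2 (chr7:132599638-132599787, minus strand) and Irx2 (chr13:72628670-72628819, plus strand) lay under a peak. Six3 (chr17:85620684-85620833, plus strand), Meis1 (chr11:19018986-19019135, minus strand) and Msx3 (chr7:140049090-140049239, minus strand) did not. The Six3 run precedes a RefSeq start 7226 bp downstream of the annotated start used here.
Nkx1-2: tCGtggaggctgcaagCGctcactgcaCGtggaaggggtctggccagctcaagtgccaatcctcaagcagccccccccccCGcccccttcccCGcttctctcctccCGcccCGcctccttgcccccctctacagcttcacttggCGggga
Irx2: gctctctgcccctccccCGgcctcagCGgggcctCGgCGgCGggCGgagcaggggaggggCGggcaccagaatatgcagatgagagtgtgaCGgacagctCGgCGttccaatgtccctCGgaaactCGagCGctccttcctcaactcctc
Six3: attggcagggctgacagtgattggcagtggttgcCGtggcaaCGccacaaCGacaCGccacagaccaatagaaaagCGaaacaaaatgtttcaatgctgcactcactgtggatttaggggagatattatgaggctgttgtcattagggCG
Meis1: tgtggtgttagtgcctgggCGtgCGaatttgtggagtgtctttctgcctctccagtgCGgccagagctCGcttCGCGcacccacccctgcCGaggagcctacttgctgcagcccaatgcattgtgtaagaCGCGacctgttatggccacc
Msx3: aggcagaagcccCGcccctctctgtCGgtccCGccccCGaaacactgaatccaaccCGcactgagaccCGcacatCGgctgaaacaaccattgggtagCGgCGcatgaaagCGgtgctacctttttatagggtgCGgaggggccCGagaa
The marked promoters held 8 CG (Nkx1-2) and 13 CG (Irx2), and the unmarked ones held 6 (Six3), 9 (Meis1) and 12 (Msx3). The median over 32851 RefSeq promoters was 4.00 in the same stretch. The other picks of the rule, not printed because their runs overlap an exon, held 2 (Meis2), 9 (Six4), 13 (Msx2), 17 (Dlx1) and 18 CG (Emx1) where marked and 13 (Emx2) where unmarked. The Msx2 run lay outside its peak. Runs of Dlx1, Emx1, Msx2 and Emx2 precede RefSeq starts 1332, 493, 294 and 318 bp downstream of the annotated starts used. Marked and unmarked members thus overlapped in CG number, and the marked Meis2, whose run precedes a RefSeq start 1220 bp downstream of the annotated start, lay below the median promoter while the other picks counted here lay above it.

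A promoter was called marked when at least 1 bp of a control peak lay within 1 kb of the transcription start site (TSS), taking for each gene the isoform that spans most of the genome. Of the 60 genes, 13 were marked (21.7%, 95% Wilson interval 13.1–33.6), against 10674 of all 21853 protein-coding promoters (48.8%, 48.2–49.5). Peaks lay, among others, at Nkx1-2, Nkx6-2, Nkx6-3, Dlx1, Irx1, Irx2, Irx3, Six4, Six5, Meis2, Msx2 and Emx1, and 47 members had none. The intervals cover counting error only, and neighbouring genes of a cluster are not independent draws. The share was lower than the coding background in each of the 9 settings compared, while its size depended on the call. It was 10.0% (4.66–20.1) when the TSS base itself had to lie in a peak, where the background was 44.2%, and 13.3% (6.91–24.2) when peaks narrower than 1 kb were left out.

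Other homeobox genes were marked more often by count. Of 39 Hox genes 15 were marked (38.5%, 24.9–54.1), and of 89 homeobox genes outside the Hox clusters and the 10 families 29 were (32.6%, 23.7–42.9). These last included the pluripotency gene Nanog, the primed-state gene Otx2 and Tgif1, Zeb1 and Zeb2. The intervals of all 3 homeobox groups overlapped and lay wholly or partly below the coding background, so the promoter call at TSS ± 1 kb does not separate the members from the other homeobox genes.

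**Figure D1:**
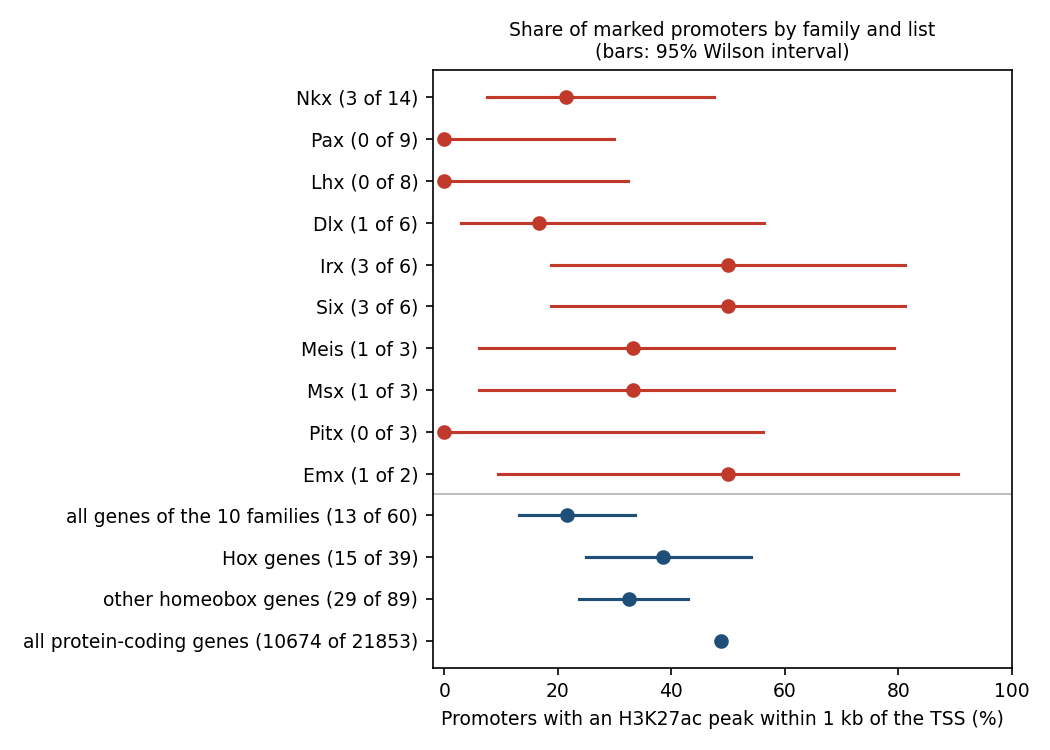
Share of promoters with a control H3K27ac peak within 1 kb of the TSS, in percent, for each of the 10 families, all 60 members, Hox genes, other homeobox genes and all protein-coding genes. Points are shares and bars 95% Wilson intervals, and the members sit at 21.7% against 48.8% of all protein-coding promoters.

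The stem cell identity of the peak list was checked with markers. Promoters of 9 of 12 naive pluripotency markers were marked, among them Pou5f1, Nanog, Sox2 and Zfp42, while Esrrb, Klf4 and Dppa3 had no peak within 1 kb of the chosen TSS. Marked were 2 of 4 primed, 2 of 4 neural, 1 of 4 mesoderm, 2 of 4 endoderm and 0 of 4 fibroblast markers, so some lineage genes (Sox1, Tubb3, Eomes, Gata4, Gata6) carried a peak as some members did. Whether differentiated cells in the culture contributed to the members' peaks was not tested.

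The families differed in count, but each is small. Irx and the sine oculis family had 3 of 6 promoters marked each (50%, 18.8–81.2), Emx 1 of 2 (50%, 9.45–90.5), Meis and Msx 1 of 3 each (33.3%, 6.15–79.2), Nkx 3 of 14 (21.4%, 7.57–47.6) and Dlx 1 of 6 (16.7%, 3.01–56.4). Pax had 0 of 9 marked (Wilson 0–29.9), and a count of 0 leaves room for a share as high as 33.3% by the 3-count limit. Lhx had 0 of 8 (Wilson 0–32.4, limit 37.5%) and Pitx 0 of 3 (Wilson 0–56.1), a number too small to set a limit. The interval of Pax overlapped those of Irx and the sine oculis family, so these counts do not order the families. Against the background of 48.8%, the Wilson intervals of Nkx, Pax and Lhx lay below it and those of the other 7 families included it. For Lhx this holds for the call as made, since the count of 0 became 1 of 8 with 2 kb windows or the longest spliced isoform and 2 of 8 with any isoform.

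Irx1, Irx2 and Irx3 are patterning factors of neural tissue, limb and heart. Their peaks were CpG-dense, and those of Irx1 and Irx3 were narrower than 1 kb. At Irx1 (ENSMUSG00000060969.9) a 698 bp peak (chr13:71962841-71963538, mm10) ran from 185 to 882 bp downstream of the TSS, over exon 1 and intron 1. At Irx2 (ENSMUSG00000001504.10) a 1509 bp peak (chr13:72628107-72629615) spanned the TSS from -713 to 795 bp (negative is upstream), covering the Irx2 sequence shown above, and also lay within 1 kb of the start of the lincRNA Gm20554. At Irx3 (ENSMUSG00000031734.13) a 481 bp peak (chr8:91800917-91801397), the narrowest at any marked member, began 670 bp downstream of the TSS in exon 1 and lay within 1 kb of the start of the antisense RNA Irx3os. Each of these genes had this 1 peak within 50 kb and no other. Irx4, Irx5 and Irx6 were unmarked, with the nearest peak at 67.0, 224 and 97.8 kb, and Irx5 and Irx6 stood in 1 stretch of 638 kb without a peak. The family thus split into genes with a single promoter peak and genes with none within 50 kb.

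Promoter peaks at the sine oculis genes Six4 and Six5 lay over the TSS. At the muscle gene Six4 (ENSMUSG00000034460.9) a 4748 bp peak (chr12:73109308-73114055) reached from -630 to 4117 bp, and a 1999 bp peak covered part of intron 2 and exon 3. The eye gene Six6 was unmarked, its nearest peak 22.0 kb upstream.

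Six5 (ENSMUSG00000040841.5), a gene of lens and muscle, had a 2498 bp peak (chr7:19092904-19095401) from -1690 to 807 bp of its TSS and 4 peaks within 50 kb. Six2, a kidney progenitor factor, and Six3, a forebrain and eye factor, shared a stretch of 610 kb without a peak, and their nearest peak was 112 and 187 kb away. The unmarked Six3 promoter printed above comes from that stretch.

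**Figure D2:**
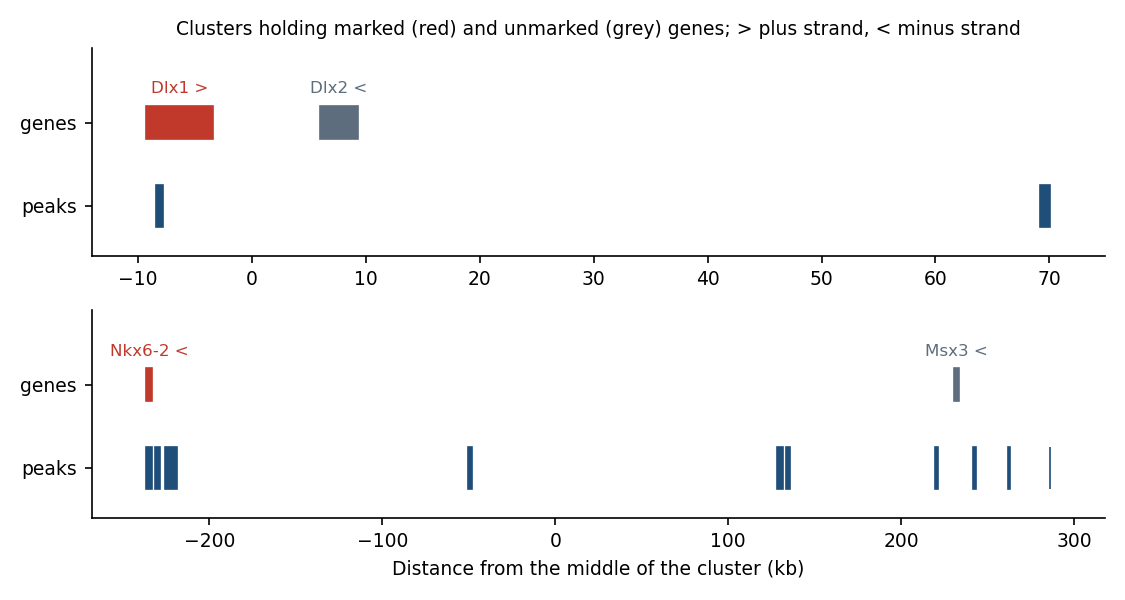
Maps of 2 clusters of members (TSSs at most 500 kb apart) that hold both marked and unmarked genes, with distance from the cluster's centre in kb on the x axis, genes as bars (red marked, grey unmarked) and control peaks as blue blocks. The Dlx1 and Dlx2 cluster holds 1 peak between its TSSs and the Nkx6-2 and Msx3 cluster 6.

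Of 14 Nkx genes only Nkx1-2, Nkx6-2 and Nkx6-3 were marked. Nkx1-2 (ENSMUSG00000048528.7), a gene of the caudal neural plate, had a 5089 bp peak (chr7:132597122-132602210) that covered the whole 2 kb window and 52.9% of the gene. Nkx6-2 (ENSMUSG00000041309.17), a factor of ventral neural progenitors and oligodendrocytes, had a 3275 bp peak (chr7:139579322-139582596) that began 194 bp downstream of the TSS, ran past the 3′ end and covered 94.1% of the gene. Nkx6-3 (ENSMUSG00000063672.7), a gene of stomach and hindbrain, had a 1466 bp peak (chr8:23152817-23154282) over its TSS and a 13133 bp peak that began in intron 2 and reached 16976 bp from the TSS. Peaks covered 50.2% or more of each of these 3 short genes, and the TSS of Nkx6-2 alone lay outside them.

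The other 11 Nkx genes included regulators of lung and thyroid (Nkx2-1), heart (Nkx2-5), pancreas and neural tube (Nkx2-2, Nkx6-1) and axial skeleton (Nkx3-2). Of these 11 only Nkx2-2 had a peak within 50 kb, a 414 bp peak in intron 2 that began 7275 bp downstream of the TSS. Nkx2-6 lay 535 kb from the nearest peak in a stretch of 1582 kb without a peak, the longest around any member. Nkx2-1 and Nkx2-9 shared a stretch of 752 kb with Pax9. Nkx1-1, Nkx2-3, Nkx2-4, Nkx2-5, Nkx3-2 and Nkx6-1 lay 54.7 kb (Nkx1-1) to 99.4 kb (Nkx6-1) from a peak.

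Meis2 (ENSMUSG00000027210.20), a partner of Pbx and Hox proteins in limb, heart and neural crest, had the widest promoter peak of the members. It measured 11454 bp (chr2:116056146-116067599) and ran from -1760 bp of the TSS through exons 1 to 6 into intron 6 of a gene with 13 exons, and starts of the lincRNAs 2700033N17Rik and G630016G05Rik lay within 1 kb of it. A second peak of 2973 bp lay in Meis2 intron 7. Meis1, its paralogue in blood, eye and limb, was unmarked and had 1861 bp of peak in intron 7, beginning 60417 bp downstream of the TSS. Meis3 was unmarked, with the nearest peak 44.6 kb away. Peak sequence inside intron 7 was thus present in both paralogues, and promoter peak sequence in Meis2 alone of the 3 genes.

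Dlx1, Msx2 and Emx1 each carried 1 narrow peak just inside the gene. At the interneuron gene Dlx1 (ENSMUSG00000041911.3) 581 bp (chr2:71528999-71529579) lay in the 5′ UTR of exon 1, from 886 to 1466 bp downstream of the TSS, and only 115 bp of it fell in the 2001 bp window. A RefSeq start of Dlx1 lies inside that peak, 1332 bp downstream of the TSS used. At the craniofacial gene Msx2 (ENSMUSG00000021469.9), a target of BMP signalling, 610 bp (chr13:53472138-53472747) began 327 bp downstream of the TSS in exon 1. At the cortical gene Emx1 (ENSMUSG00000033726.8) 678 bp (chr6:85187584-85188261) began 146 bp downstream of the TSS in exon 1. Their closest relatives were unmarked: Dlx2, convergent with Dlx1, lay 17.2 kb from the same 581 bp peak, Msx1 lay 4.34 kb and Msx3 8.40 kb from a peak, and Emx2 lay 112 kb from one. Dlx3 and Dlx4 were 13.4 and 39.5 kb from a 242 bp peak and Dlx5 and Dlx6 73.9 and 92.7 kb from a peak, so the 3 Dlx gene pairs held 1 marked gene among 6.

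Many of the peaks lay inside the gene rather than over its start. In 7 of 13 marked members (53.8%) the peak lay wholly downstream of the TSS, among them Nkx6-2, Dlx1, Irx1, Irx3, Msx2 and Emx1, and in none did it lie wholly upstream. The same count was 855 of 10674 marked protein-coding promoters (8.01%), 4 of 15 Hox genes (26.7%) and 9 of 29 other homeobox genes (31.0%). The TSS base lay in the peak in the other 6 members, Nkx1-2, Nkx6-3, Irx2, Six4, Six5 and Meis2 (46.2%), against 90.5% of marked protein-coding promoters, 73.3% of Hox genes and 62.1% of other homeobox genes. The choice of isoform bears on this, since with the TSS of any isoform the member count was 7 of 13 (53.8%) and the coding share 93.8%. RefSeq starts lay inside the peaks of Dlx1 and Emx1, and the closest RefSeq starts of Irx3 and Msx2 (413 and 294 bp downstream) lay outside them.

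**Figure D3:**
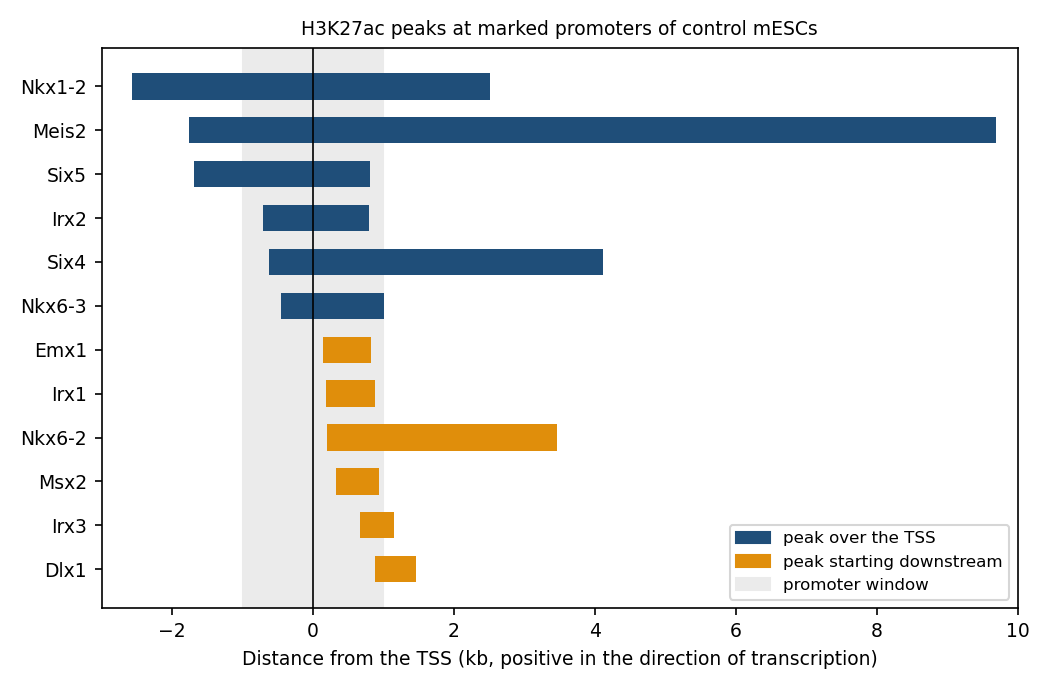
Extent of the control peak at each marked member named in the text, with distance from the TSS in kb on the x axis (negative is upstream) and the window of 1 kb each side in grey and 1 gene per line. In 6 genes the bar crosses 0 and in the other 6 it begins downstream of it.

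The median width of the members' peaks was 1509 bp (quartiles 678 and 3275, range 481 to 11454), against 2174 bp (1558 and 4832) over marked protein-coding promoters, 1397 bp over Hox genes and 2306 bp over other homeobox genes. The 95% binomial interval of the members' median, 610 to 4748 bp, included the coding value, so the medians are not separated. The members' median was 3623 bp over the 6 genes with the TSS base in the peak and 2886 bp without peaks narrower than 1 kb. Peaks narrower than 1 kb made up 5 of 13 (38.5%), against 10.6% of marked protein-coding promoters, 33.3% of Hox genes and 31.0% of other homeobox genes. The median part of the 2001 bp window under a peak was 807 bp in members and 1691 bp over all marked protein-coding promoters. The narrow peaks were those at Dlx1, Irx1, Irx3, Msx2 and Emx1, all of them wholly downstream of the TSS.

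The narrow and wide peaks differed in base composition. GC content of the 5 narrow peaks was 66.6 to 72.3% (median 70.1) and their observed over expected CpG ratio 0.79 to 0.90 (median 0.82), where 1 is the number of CpG that the base composition alone gives. In the 8 wider peaks GC content was 50.5 to 70.4% (median 57.3) and the ratio 0.31 to 0.82 (median 0.62), and the Irx2 peak (70.4% and 0.81) lay within the range of the narrow ones. Over all 13 the medians were 64.6% and 0.79, against 53.2% and 0.59 over peaks at all marked protein-coding promoters, 61.3% and 0.64 over Hox genes and 61.1% and 0.73 over other homeobox genes. Width and composition moved together in these 13 peaks and cannot be told apart.

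Marked and unmarked members had promoters of like CpG content. Within 500 bp of the TSS the median CpG ratio was 0.67 in the 13 marked (quartiles 0.63 and 0.83) and 0.67 in the 47 unmarked (0.61 and 0.72), and median GC content was 59.1 and 59.9%. Over all protein-coding genes the median ratio was 0.75 in marked and 0.24 in unmarked promoters. Unmarked Hox genes (median 0.63) and other unmarked homeobox genes (0.64) lay near the members. Promoters were called CpG-island-like at a ratio of at least 0.6 and GC content of at least 50%, which held for 10 of 13 marked (76.9%) and 34 of 47 unmarked members (72.3%). The corresponding coding shares were 76.5% and 16.7%, and of unmarked Hox and other homeobox promoters 50% and 56.7% were in this class. Among CpG-island-like promoters 10 of 44 members were marked (22.7%, 12.8–37.0), against 81.4% of 10030 protein-coding ones, 47.8% of Hox genes (29.2–67.0) and 42.4% of other homeobox genes (30.6–55.1). Among the rest 3 of 16 members were marked (18.8%, 6.59–43.0) and 21.3% of protein-coding promoters. The distance between members and background was thus in the CpG-island-like class, and the values in the other class overlapped.

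**Figure D4:**
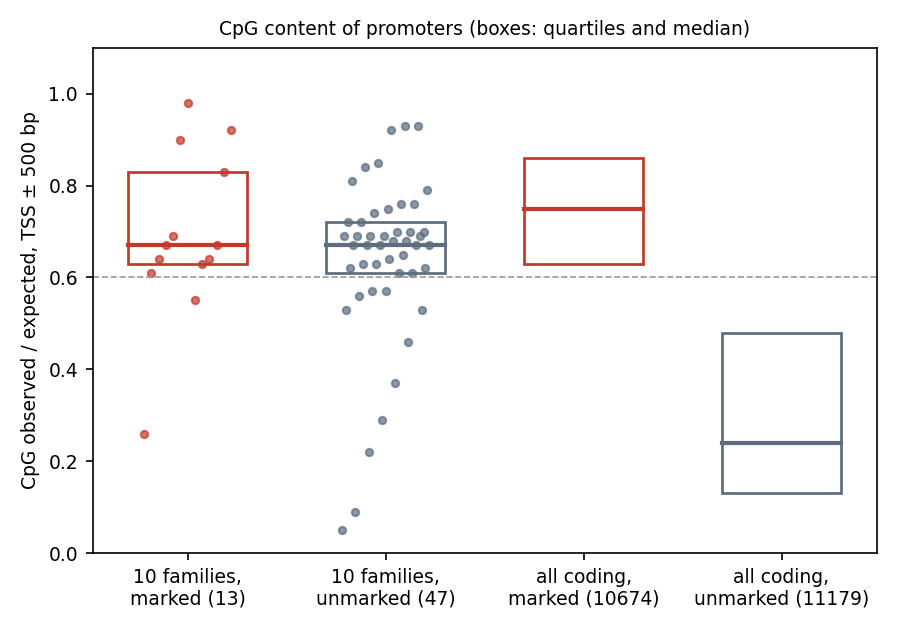
CpG observed over expected ratio within 500 bp of the TSS for the 13 marked and 47 unmarked members (points) and for all protein-coding genes, with boxes for quartiles and median and a dashed line at 0.6. Both kinds of member have a median of 0.67, while all protein-coding genes have 0.75 where marked and 0.24 where unmarked.

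Single genes show how far the values reach. Nkx6-2 had the highest ratio (0.98) and was marked, and Nkx2-4 and Six2 (0.93 each) and Nkx1-1 (0.92) were as CpG-rich as Irx2 (0.92) and unmarked. At the low end Nkx6-3 (0.26) was marked, while Pax8 (0.22), Lhx3 (0.29), Lhx4 (0.09) and Pax4 (0.05) were not. The hexamer TAATTA, a core of homeodomain motifs that reads alike on both strands, was in 2 of the 52 RefSeq promoters of 44 members (3.85%, at Msx2 and Emx2), against 5.29% of all 32851. Each RefSeq promoter holds 250 bases before and 50 from the start.

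The unmarked members were next examined for peaks farther away. A peak lay within 50 kb of the TSS in 34 of 60 members (56.7%, 44.1–68.4), against 72.3% of protein-coding genes, 87.2% of Hox genes (73.3–94.4) and 69.7% of other homeobox genes (59.5–78.2). The 34 include the 13 marked members, and the 15804 protein-coding genes with such a peak include the 10674 marked ones. These shares thus in part restate the promoter call. Of the 47 unmarked members 21 had one, a share close to that of the 11179 unmarked protein-coding genes. The median distance of the 47 was 55.9 kb (quartiles 23.6 and 98.6), near the 60.3 kb (18.3 and 187) of all unmarked protein-coding genes. Distances beyond 100 kb were found in 23.4% of unmarked members and 38.3% of unmarked protein-coding genes. The stretch without a peak around an unmarked TSS had a median of 209 kb in members and 287 kb in protein-coding genes. By their medians, unmarked members lay about as far from peaks as unmarked genes in general.

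The Lhx genes were unmarked, and most had a peak within 50 kb. The nearest peak was within 50 kb in 7 of 8, against 72.3% of all protein-coding genes, marked ones included, a difference that 8 genes are too few to read. Their median distance was 18.4 kb (1.82 to 60.6), while Lhx4, a pituitary and motor neuron factor, lay 60.6 kb away. At Lhx8, a gene of cholinergic neurons and oocytes, an 838 bp peak began 1822 bp downstream of the TSS and covered exons 2 and 3. At Lhx2, a gene of eye and forebrain, a 1229 bp peak lay in intron 1 from 11429 bp downstream and held a second RefSeq start at 12027 bp. Lhx9, of gonad and limb, lay 9.55 kb from a peak, and Lhx1, of kidney and head organizer, 11.4 kb. Lhx5, Lhx3 and Lhx6 lay 25.4, 28.3 and 30.3 kb away.

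Pax genes lay about as far from peaks as unmarked genes in general. The nearest peak was 25.1 kb (Pax4) to 345 kb (Pax9) away with a median of 56.1 kb, near the 55.9 kb of all unmarked members and 60.3 kb of unmarked protein-coding genes. Of the 9 genes 4 had 1 within 50 kb, and with so few genes these counts do not order Pax and Lhx. Pax6, the eye and forebrain gene, lay 56.1 kb from a peak, Pax2 of kidney and midbrain 35.0 kb, and Pax3 of neural crest and muscle 288 kb in a stretch of 968 kb without a peak. Pax1 lay 70.8 kb away. Pax5, the B cell factor, Pax7, of muscle stem cells, and Pax8, of thyroid and kidney, had peaks within the gene: 2257 and 3216 bp in Pax5 intron 8, 2007 bp in Pax7 intron 7 and 320 bp at Pax8 exon 4. All of these peaks began more than 30 kb from their own TSS.

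Pitx1, which specifies hindlimb, had a 1049 bp peak over intron 1 and exon 2 from 4393 bp downstream of the TSS, and Pitx3, of lens and dopamine neurons, lay 4.28 kb from a peak. With the TSSs of all isoforms, Lhx2, Lhx8 and Pitx1 became marked, giving 16 of 60 (26.7%, 17.1–39.0) against 51.0% of protein-coding genes. These 3 gained peaks had GC contents of 69.3, 73.6 and 71.2% and CpG ratios of 0.80, 0.79 and 0.75, in or near the range of the narrow promoter peaks. In all, 7 of the 47 unmarked members had a peak within 10 kb: Lhx8, Pitx1, Nkx2-2, Msx1, Msx3, Lhx9 and Pitx3. This share was near that of unmarked protein-coding genes (1683 of 11179), so it is not particular to the members.

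**Figure D5:**
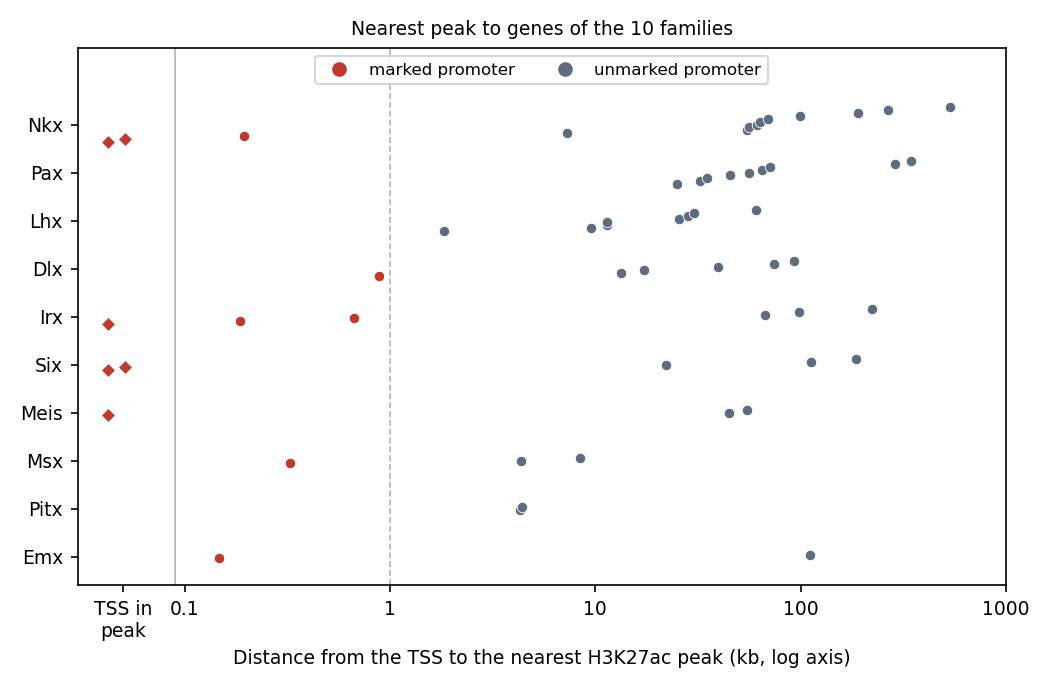
Distance in kb from the TSS to the nearest control peak for members by family (a few are not drawn), on a log axis, with marked members in red, unmarked in grey, members whose TSS lies in a peak at the left edge and a dashed line at 1 kb. Lhx genes sit between 1.82 and 60.6 kb and Pax genes between 25.1 and 345 kb.

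A peak overlapped the gene itself in 21 of 60 members, the 13 marked ones and Nkx2-2, Pax5, Pax7, Pax8, Lhx2, Lhx8, Meis1 and Pitx1, against 55.8% of protein-coding genes. The sequences at the centres of 2 intron peaks, from GRCm38.p6 on the gene's strand, show how they compare with the promoters above (chosen after their values were seen). The Nkx2-2 run (chr2:147178544-147178693, minus strand) is from intron 2 and the Pax7 run (chr4:139767884-139768033, minus strand) from intron 7, with CG in capitals.
Nkx2-2: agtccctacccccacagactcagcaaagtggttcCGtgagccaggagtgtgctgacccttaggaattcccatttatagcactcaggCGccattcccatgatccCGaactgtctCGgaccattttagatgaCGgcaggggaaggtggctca
Pax7: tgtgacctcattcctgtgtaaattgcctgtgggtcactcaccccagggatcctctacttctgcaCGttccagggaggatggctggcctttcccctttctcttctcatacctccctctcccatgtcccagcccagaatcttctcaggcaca
They held 5 CG (Nkx2-2) and 1 CG (Pax7) in 150 bases. Whole peaks at Pax5, Pax7, Pax8 and Meis1 had CpG ratios of 0.13 to 0.28, against 0.79 to 0.90 in the narrow promoter peaks and 0.31 to 0.82 in the 8 wider ones. The Nkx2-2 peak, at 0.55, lay within the range of the wider ones. The peaks inside the unmarked genes Lhx2, Lhx8 and Pitx1 had 0.75 to 0.80.

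Neighbouring members were compared next. With TSSs at most 500 kb apart, 23 members fell into 10 clusters, of which 7 held no marked member, 3 held both kinds and 0 were marked throughout. Of the 37 single members 9 were marked, and of the 23 clustered ones 4. In the Nkx6-2 and Msx3 cluster, 466 kb long, 6 peaks with 19.1 kb lay between the TSSs, and Msx3 was unmarked at 8.40 kb from a peak. In the Nkx2-4, Nkx2-2 and Pax1 cluster 2 peaks with 2.70 kb lay in 280 kb, 1 of them in Nkx2-2. Of the other clusters without a marked member, Dlx3 with Dlx4, Dlx5 with Dlx6, Six2 with Six3, Irx5 with Irx6 and Nkx2-1 with Nkx2-9 and Pax9 had no peak between their TSSs.

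The 13 promoter peaks were also set against the 5′ ends of other annotated genes. None of the 13 peaks lay within 1 kb of the 5′ end of another protein-coding gene, and 9 lay within 1 kb of no other annotated gene's 5′ end, the exceptions being Nkx1-2 (antisense RNA Gm16764), Irx2, Irx3 and Meis2. Starts of single isoforms were not compared. The same counts over all marked protein-coding promoters were not made, so these are not read as particular to the members. Surroundings ranged widely. Dlx1, Irx1, Irx2 and Irx3 had no other peak within 50 kb, while Nkx1-2, Nkx6-3, Six4, Six5 and Emx1 had 4 peaks each. The list has no heights, so a weak and a strong peak count alike, and an unmarked promoter may have had signal below the authors' thresholds.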

How the data were processed

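H3K27ac ChIP-seq was made by the authors from control, NVP-2 and ActD mESCs, with 2 replicates each. Groups were taken from the labels, which do not say whether replicates were separate cultures. The deposited file analysed is 1 list of control peaks, in which each line gives chromosome, start and end in bp on mm10, with no count, height or p-value. Its depth is unknown from the file. According to their methods, the authors trimmed reads with Cutadapt, aligned them with bwa meme to a combined mouse and human reference, and dropped duplicates (Picard 2.9.1) and reads of low mapping quality (SAMtools 1.4). LanceOtron called the peaks, and those within 2 kb of each other were joined. Peaks under height thresholds after input subtraction, or away from ATAC-seq summits, were removed, so an absent peak may reflect a threshold, and joining within 2 kb makes widths larger.

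Starts in the list were taken as counted from 0 and are printed counted from 1. Peaks were on 21 chromosomes and 0 ran past a chromosome end of GRCm38. Genes came from GENCODE M21 of GRCm38, while the paper's text names release 25, and genome and promoter sequences came from RefSeq (GRCm38.p6), whose table held 44 of the 60 members. All 52 promoter entries of the members equalled the genome. Overlaps of at least 1 bp with TSS ± 1 kb, distances, CpG ratios and 95% Wilson intervals were computed with Python 3.11.15, numpy 2.4.6 and scipy 1.17.1, and the scripts were tested on simulated data. With 1 pooled list no test between samples could be made, and lists were described beside all protein-coding genes. Some members counted in the totals are not reported here by name. Members and lists were chosen with earlier results of these data known. Genes named were every marked member, unmarked members with a peak within 10 kb or at another isoform TSS, the unmarked member farthest from a peak in each family, and members sharing a peak or cluster with a marked one. Other members, named to account for all of them, and the other homeobox genes and intron peaks named were chosen after their values were seen. Alternatives were other windows, the TSS alone, other isoforms, a minimum peak width of 1 kb, a minimum overlap of 500 bp, no other TSS within 2 kb and other distances. A further alternative counted each cluster once, as marked when any of its genes was. RefSeq starts and a stricter CpG definition were added after seeing the data.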

Additional observations from a re-analysis of the deposited data

How the results depend on the processing

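No paired analysis was possible because the file analysed here is 1 peak list pooled over both control replicates, with no replicate columns (reads and signal tracks of single replicates were not analysed here), and for the same reason no replicate could be left out. Of 76 alternative values, 53 stayed within the interval of the main value or within 1.5 times of a main count, and of 70 family counts 55 stayed within 1.5 times. The cause of the changes was not tested unless the setting itself shows it. With the TSS base alone, the marked share was 10.0% of members, 20.2% of other homeobox genes and 44.2% of protein-coding genes, 11.4% and 75.4% among CpG-island-like members and protein-coding promoters, and 4 families in place of 7 had a marked member. Families with a marked member numbered 9 with any isoform or the longest spliced isoform, 8 with 2 kb windows and 6 with 500 bp windows or 500 bp of overlap. With peaks at least 1 kb wide these were 22.5% of other homeobox genes, 43.7% of protein-coding and 73.4% of CpG-island-like protein-coding promoters, 4 families, and 38.3% of members with a peak within 50 kb, and the member call was lost at Dlx1, Irx1, Irx3, Msx2 and Emx1. The protein-coding share was 49.9% with 2 kb windows, 51.0% with any isoform, 47.4% with 500 bp of overlap, 43.1% without another TSS within 2 kb and 52.1% at RefSeq starts. Its CpG-island-like class gave 79.9% with the longest spliced isoform, 79.8% with 500 bp of overlap, 78.0% without another TSS within 2 kb and 86.0% under the stricter definition. With each cluster counted once, as marked when any of its genes was, Hox gave 100% (4 of 4). That rule raises the share of large clusters, and the number is too small to read. A peak lay within 20 kb of 40.0% and within 100 kb of 81.7% of members. Windows of 500 bp and an overlap of 500 bp each left 10 of 60 members marked, with Dlx1 and Irx3 among those lost, and RefSeq starts gained Lhx2. The list does not give the depth of the 2 pooled libraries, and how depth bears on these shares was not tested.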
